A study of Danio rerio with 16 samples.

Results

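The transcripts that zebrafish primordial germ cells (PGCs) gained and lost between 4 and 7 h post-fertilization (hpf), that is between the blastula and the gastrula, were measured by comparing PGCs at 7 hpf with PGCs at 4 hpf. The comparison used 4 of the 16 RNA-seq libraries of the series, taken by their labels: 2 replicates of 7 hpf PGCs and 2 replicates of 4 hpf PGCs. The 4 libraries of somatic cells (soma) of the same stages were set beside them. The remaining 8 libraries, of PGCs and soma at 24 and 36 hpf, entered the fit but not the comparison. All embryos, the source of PGCs and soma alike, carried a kop:egfp-f'nos3'UTR transgene joined to cry:dsred. It has the promoter of kop, which is active in the mother's oocytes, and the nos3 3'UTR, which keeps the RNA for farnesylated EGFP in PGCs while soma clears it. PGCs and somatic cells were separated by flow cytometry. The study describes its expression replicates as biologically independent. The number of embryos behind a library, and whether replicates came from separate clutches, is not given in the sources used here. P-values thus measure the spread between the 2 libraries of a group, estimated jointly over all 16 libraries.

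PGCs of zebrafish arise from the few cells that inherit germ plasm, an aggregate of maternal RNA and protein. At 4 hpf the embryo has only recently switched on its own genome, and most RNA in every cell is still maternal. Maternal RNA is then cleared, in part through the microRNA miR-430, whereas RNA-binding proteins such as Dnd1 protect several germ cell RNAs in PGCs. By 7 hpf the germ layers form in the soma, the enveloping layer (EVL) covers the embryo as a simple epithelium, and PGCs migrate along a gradient of the chemokine Cxcl12.

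The deposited expected counts summed to 4884816 and 3489143 in 7 hpf PGCs, and to 3519616 and 4674227 in 4 hpf PGCs. Levels are given as CPM (counts scaled to 1000000 per normalised library), always for replicate 1 and then replicate 2. A level of 3 counts, taken as the smallest signal, was 0.526 and 0.705 CPM in 7 hpf PGCs and 0.567 and 0.497 CPM in 4 hpf PGCs, a floor that covers counting error only. Across the genes tested, log2 CPM correlated with r = 0.950 between the 7 hpf PGC replicates, with r = 0.955 between the 4 hpf PGC replicates, and with r between 0.875 and 0.903 between the stages. The 92 spike-in rows held no counts, so all values are shares of the RNA in a library. Less RNA per cell, fewer cells of a type and a change in composition cannot be told apart.

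The PGC labels were checked against marker genes. The translational regulator nanos3 had 711 and 711 CPM in 7 hpf PGCs and 669.5 and 645 CPM in 4 hpf PGCs, beside 1.61 and 1.31 CPM in 7 hpf soma and 8.15 and 3.29 CPM in 4 hpf soma. The RNA-binding protein gene dnd1 and the helicase gene ddx4 (vasa) were likewise far higher in every PGC library than in any soma library of these stages. Reads from the reporter, which carries the nos3 3'UTR, may add to nanos3, and PGCs were sorted by that reporter. The share of such reads was not tested. The piRNA-binding protein gene piwil1 did not separate the cell types, with 47.3 and 28.4 CPM in 7 hpf PGCs against 38.2 and 9.19 CPM in 7 hpf soma. Markers of differentiated muscle, blood and neurons, 19 of which were tested, summed to 8.06 and 10.6 CPM in 7 hpf PGCs. In 4 hpf PGCs the sum was 14.7 and 13.8 CPM. Soma was as low, with 13.0 and 23.0 CPM at 7 hpf and 15.6 and 15.1 CPM at 4 hpf. Such cells are absent at these stages, so this list cannot show whether other cells were sorted along with PGCs. None of these 19 genes was called, 9 of the 20 on the list had no count in either 7 hpf PGC library, and 7 had none in either 4 hpf PGC library. The names of the mitochondrially encoded genes matched no row, so that list gave no value. Markers of the EVL moved strongly with stage and are described below with their own values.

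Between the stages, 1033 of 20536 genes tested (5.03%) were called higher and 428 (2.08%) were called lower in 7 hpf PGCs. A gene was called where edgeR's quasi-likelihood test gave a Benjamini-Hochberg adjusted p under 0.05 and the log2 fold change passed 1.5, and all adjusted p-values below are of that test over all 20536 genes. Of the genes called higher, 169 had no count in either 4 hpf library and 293 had at most 3 counts in both. Of the genes called lower, 20 had no count in either 7 hpf library. The genes called higher took 11% and 8.73% of all counts in 7 hpf PGCs, against 1.54% and 1.55% in 4 hpf PGCs. The genes called lower took 1.29% and 1.19% of all counts in 7 hpf PGCs, against 6.68% and 7.08% in 4 hpf PGCs. Much of that share was si:ch211-241j12.3, with 29261 and 18798 counts in 7 hpf PGCs and 77201 and 165353 counts in 4 hpf PGCs. The median log2 fold change over all genes was 0. Without normalization factors the numbers were 808 higher and 593 lower, so the balance of gains over losses depended on the scaling. The stages did not overlap in 1032 of the 1033 and in all 428 genes called, nor in 48.7% of all genes tested. Of the genes called higher, 46 had the same counts in the 4 PGC libraries as another gene, so their reads may have been shared between copies. With a library left out, and a stage thus resting on a lone library, fewer genes were called: 264 higher and 115 lower without 4 hpf replicate 1, 393 and 199 without 4 hpf replicate 2, 442 and 98 without 7 hpf replicate 1, and 684 and 196 without 7 hpf replicate 2.

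**Figure D1:**
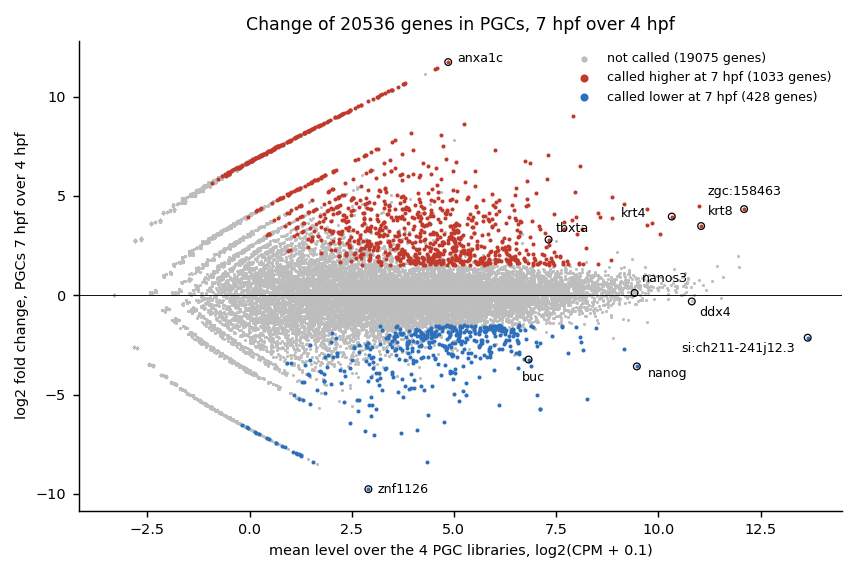
Log2 fold change of each of the 20536 genes tested (y axis, 7 hpf PGCs over 4 hpf PGCs) against its mean level over the 4 PGC libraries (x axis, log2 of CPM plus 0.1). Red points are the 1033 genes called higher and blue points the 428 called lower; the diagonal streaks are genes with few or no counts at one stage, whose fitted fold is not a measured bound, and nanos3 and ddx4 lie near 0.

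Most transcripts of germ cell factors were not called in PGCs. Of 17 germ plasm and germ cell factors tested, 0 were called higher and 2 were called lower in 7 hpf PGCs, with a median log2 fold change of -0.50, and 15 of the 17 lay below 0. The share called lower was above the 2.08% of all genes, and 4 of the 17 were called lower by DESeq2, by the likelihood ratio test and with the 4 PGC libraries alone. In soma, where a larger share of genes was called (9.29% higher and 9.37% lower), 0 of the 17 were called higher and 10 were called lower, with a median of -2.33. Summed over the list, the level was 6641 and 7972 CPM in 7 hpf PGCs, against 8469.9 and 12419 CPM in 4 hpf PGCs.

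Among the transcripts not called, tdrd7a, which encodes a Tudor protein of germ granules, had 2061 and 3539 CPM in 7 hpf PGCs and 2522 and 3633 CPM in 4 hpf PGCs. The ranges of the stages overlapped, and the log2 fold change was -0.14 ± 0.61 (SE, adjusted p = 0.981). Levels of ddx4 were 1485 and 1736 CPM at 7 hpf and 1629.8 and 2371 CPM at 4 hpf, a log2 fold change of -0.31 ± 0.52 (adjusted p = 0.79). For dnd1 they were 668 and 841 CPM and 674 and 1139 CPM at 7 and 4 hpf, with -0.27 ± 0.55 on the log2 scale (adjusted p = 0.857). The translational activator gene dazl had 115 and 45.3 CPM in 7 hpf PGCs and 125 and 126 CPM in 4 hpf PGCs (log2 fold change -0.64 ± 0.68), with the 7 hpf replicates further apart than the 4 hpf replicates. For ca15b, a carbonic anhydrase gene expressed in PGCs, levels were 484 and 245 CPM in 7 hpf PGCs and 575 and 1164 CPM in 4 hpf PGCs, a 2.39-fold lower level whose stages did not overlap but which did not pass the test (adjusted p = 0.241). In soma, ca15b had 0.322 and 0 CPM at 7 hpf and 27.3 and 9.88 CPM at 4 hpf.

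The germ plasm organizer buc (bucky ball) was an exception. It fell to 23.5 and 20.0 CPM in 7 hpf PGCs, against 217 and 193 CPM in 4 hpf PGCs (log2 fold change -3.24 ± 0.85, adjusted p = 0.033). The replicates of a stage were close to each other and the stages stood far apart. In soma, buc had 7.25 and 6.12 CPM at 7 hpf and 154 and 74.2 CPM at 4 hpf. The other gene called lower was a hook2 gene, HOOK2 (ENSDARG00000099235), of a family that links cargo to microtubules, with 225 and 77.3 CPM in 7 hpf PGCs and 643 and 1346 CPM in 4 hpf PGCs (log2 fold change -2.72 ± 0.51, adjusted p = 0.0058). The G protein regulator rgs14a had 251 and 95.8 CPM at 7 hpf against 709.6 and 856 CPM at 4 hpf, which did not overlap but missed the threshold (adjusted p = 0.0771). With any 1 of the 4 libraries left out, between 0 and 1 of the 17 genes was called lower.

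Genes of the piRNA pathway, which silences transposons in the germline, gave no call in PGCs. Beside 5.03% and 2.08% of all genes, 0 of the 13 tested were higher and 0 were lower. Their median log2 fold change was -0.63, and 12 of 13 lay below 0. In soma 6 of the 13 were called lower, beside 9.37% of all genes there. The soma median was -1.70 with genes of at most 3 counts in both libraries of a stage at their bound. The Piwi protein genes piwil1 (-0.55 ± 0.67 on the log2 scale) and piwil2 (-0.56 ± 0.61) had log2 fold changes smaller than their SE in PGCs. For tdrd1, a Tudor protein that binds Piwi proteins, levels were 30.0 and 46.3 CPM in 7 hpf PGCs and 67.5 and 71.1 CPM in 4 hpf PGCs. In soma the levels of tdrd1 were 3.54 and 4.37 CPM at 7 hpf and 63.0 and 30.2 CPM at 4 hpf.

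**Figure D2:**
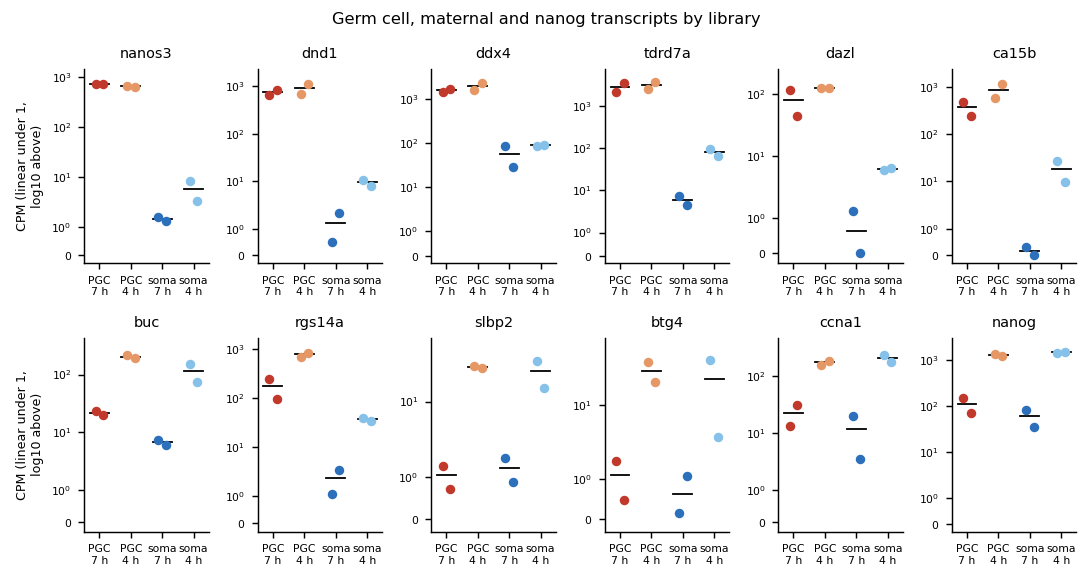
Level of 12 germ cell, maternal and pluripotency transcripts in CPM (y axis, linear under 1 and log10 above) in each library of 7 hpf PGCs, 4 hpf PGCs, 7 hpf soma and 4 hpf soma; each point is 1 library and each bar the mean of 2. In PGCs nanos3, dnd1, ddx4 and tdrd7a have log2 fold changes near 0, while buc, slbp2, btg4, ccna1 and nanog are lower at 7 hpf in both replicates.

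Some transcripts of the oocyte fell in PGCs too. Of 31 oocyte and maternal-effect genes tested, 0 were called higher and 5 lower in 7 hpf PGCs, beside 5.03% and 2.08% of all genes. The median log2 fold change of the 31 was -1.07. In soma 2 were higher and 12 lower, beside 9.29% and 9.37% of all genes there. The oocyte histone mRNA-binding protein gene slbp2 fell to 1.40 and 0.705 CPM in 7 hpf PGCs, against 29.9 and 27.5 CPM in 4 hpf PGCs (log2 fold change -4.72 ± 0.89, adjusted p = 0.0064). The oocyte growth factor gene bmp15 had 0.701 and 1.17 CPM at 7 hpf and 21.5 and 12.8 CPM at 4 hpf (log2 fold change -4.19 ± 1.19, adjusted p = 0.0434). Both stages were separated widely for each of these genes. A relative of the maternal-effect gene zar1, zar1l, fell to 1.05 and 1.88 CPM in 7 hpf PGCs, against 21.4 and 15.6 CPM in 4 hpf PGCs (adjusted p = 0.0317), while zar1 itself had 10.3 and 12.7 CPM and 23.6 and 18.7 CPM at 7 and 4 hpf and was not called. The germline cyclin gene ccna1 fell to 13.3 and 30.5 CPM in 7 hpf PGCs, against 157 and 185 CPM in 4 hpf PGCs (log2 fold change -2.97 ± 0.67, adjusted p = 0.0172). The zona pellucida genes of the list, which encode the egg coat, were not called in any case. With any 1 of the 4 libraries left out, between 1 and 2 of the 31 genes were called.

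A list for maternal RNA clearance held genes that shorten poly(A) tails or degrade RNA, with RNA-binding protein genes such as ybx1 and igf2bp3. Its 39 tested genes had a median log2 fold change of -0.16 in PGCs. Beside 5.03% and 2.08% of all genes, 0 of the 39 were called higher and 3 lower in 7 hpf PGCs. The largest of these falls was that of btg4, an oocyte adaptor of the CCR4-NOT deadenylase, with 1.75 and 0.470 CPM in 7 hpf PGCs and 38.6 and 20.7 CPM in 4 hpf PGCs (log2 fold change -4.67 ± 1.24, adjusted p = 0.0414). The RNA granule protein gene lsm14b fell to 16.5 and 22.3 CPM in 7 hpf PGCs, against 118 and 133 CPM in 4 hpf PGCs (adjusted p = 0.0306). The deadenylase gene cnot8 had 32.1 and 31.2 CPM at 7 hpf and 125 and 116 CPM at 4 hpf, a 3.80-fold fall (adjusted p = 0.0114). The scaffold gene cnot1 and the microRNA effector gene ago2 were not called, with log2 fold changes of 0.77 ± 0.31 and 0.01 ± 0.27. Of these 39 genes, between 0 and 1 were called with any 1 of the 4 libraries left out.

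Of the factors that open the zygotic genome, nanog was called lower, whereas pou5f3 and sox19b were not called. The level of nanog was 147 and 71.9 CPM in 7 hpf PGCs, against 1388 and 1239 CPM in 4 hpf PGCs, a 12-fold fall (log2 fold change -3.58 ± 0.54, adjusted p = 0.0019). All 7 hpf values lay far below all 4 hpf values, and soma showed the same order, with 84.5 and 35.4 CPM at 7 hpf and 1411 and 1534 CPM at 4 hpf. Its partner pou5f3 had 1006 and 449 CPM in 7 hpf PGCs and 725 and 901 CPM in 4 hpf PGCs, values that overlapped (log2 fold change -0.16 ± 0.46). The SoxB1 factor sox19b, the main maternal one, had 85.2 and 147 CPM at 7 hpf and 166 and 259 CPM at 4 hpf and was not called (adjusted p = 0.185). Another SoxB1 gene, sox2, had 6.48 and 8.22 CPM in 7 hpf PGCs and no count in 4 hpf PGCs, at least 11.4-fold higher (adjusted p = 0.0228). Soma at 7 hpf had 97.7 and 46.2 CPM of sox2. The Krüppel-like factor gene klf4 had 6.83 and 4.23 CPM in 7 hpf PGCs and no count at 4 hpf (at least 7.46-fold higher, adjusted p = 0.0253), whereas soma had 0.805 and 2.84 CPM at 7 hpf and 2.16 and 1.55 CPM at 4 hpf. Of 13 pluripotency-type factors tested, these genes among them, 2 were called higher and 1 lower, beside 5.03% and 2.08% of all genes. Their median log2 fold change was 0.15, and -0.08 without normalization factors. The call of sox2 was lost with each of the 4 libraries left out, and that of klf4 with each but 7 hpf replicate 2.

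Regulators that start with the zygotic genome gave calls in both directions. Of 28 tested, 5 were called higher and 1 lower in 7 hpf PGCs, beside 5.03% and 2.08% of all genes. The 1 lower call was near the share over all genes. The median log2 fold change of the 28 was 0.24. The ventralizing ligand gene bmp4 rose to 52.9 and 48.1 CPM in 7 hpf PGCs, against 6.80 and 7.96 CPM in 4 hpf PGCs (log2 fold change 2.77 ± 0.54, adjusted p = 0.00748). The phosphatase gene dusp6, a feedback inhibitor of FGF signalling, rose to 364 and 439 CPM, against 95.6 and 168 CPM in 4 hpf PGCs (adjusted p = 0.0479). The Wnt target gene SP5 had 72.2 and 39.7 CPM in 7 hpf PGCs and 8.88 and 6.96 CPM in 4 hpf PGCs (adjusted p = 0.00777). The ectodermal factor gene foxi1 rose to 43.3 and 52.4 CPM, against 19.1 and 12.6 CPM in 4 hpf PGCs, a 3.02-fold rise (adjusted p = 0.0477). The gene called lower was the hairy-related repressor her5, with 2.1 and 3.99 CPM in 7 hpf PGCs and 53.7 and 42.9 CPM in 4 hpf PGCs (log2 fold change -3.99 ± 0.81, adjusted p = 0.00923). The Nodal antagonist genes lft1 (-0.95 ± 0.70 on the log2 scale) and lft2 (-1.36 ± 0.78) were not called. With 1 library left out, between 0 and 3 of the 28 were called higher. The count was 2 with RLE factors, with effective length offsets and without normalization factors, and 7 with DESeq2 and the likelihood ratio test.

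Mesoderm and endoderm genes were among the transcripts gained. Of 28 tested, 12 were called higher and 0 lower in 7 hpf PGCs, beside 5.03% and 2.08% of all genes. The median log2 fold change of the 28 was 2.21, or 2.19 with 5 genes set at their bound. In soma 13 were higher and 0 lower, beside 9.29% and 9.37% of all genes there, with a median of 2.70. The summed level of the list was 2009 and 1406 CPM in 7 hpf PGCs, against 707 and 806 CPM in 4 hpf PGCs. Soma of 7 hpf had 2499 and 1820.5 CPM.

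The T-box gene tbxta (brachyury) rose to 330.3 and 226 CPM in 7 hpf PGCs, against 37.4 and 42.6 CPM in 4 hpf PGCs (log2 fold change 2.80 ± 0.75, adjusted p = 0.0327). Soma had 515 and 272 CPM at 7 hpf and 19.4 and 74.0 CPM at 4 hpf, so PGCs and soma overlapped in range at 7 hpf. The segmentation clock genes her1 and her7 rose together. For her1 the levels were 97.1 and 58.2 CPM in 7 hpf PGCs and 3.40 and 1.99 CPM in 4 hpf PGCs (log2 fold change 4.85 ± 0.98, adjusted p = 0.00879). For her7 they were 65.2 and 43.5 CPM at 7 hpf and 3.59 and 1.99 CPM at 4 hpf (adjusted p = 0.018). The Notch ligand gene dlc rose to 129 and 111 CPM in 7 hpf PGCs, against 2.27 and 7.79 CPM in 4 hpf PGCs (log2 fold change 4.56 ± 0.94, adjusted p = 0.00981), with close replicates at 7 hpf. The homeobox gene eve1 had 48.9 and 33.6 CPM in 7 hpf PGCs and 0.756 and 3.32 CPM in 4 hpf PGCs (adjusted p = 0.0217).

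Some genes of this list differed widely between the 7 hpf replicates, and 4 of them, chosen after their values were seen, follow. The endoderm gene sox17 had 21.6 and 3.05 CPM in 7 hpf PGCs and 1 and 0 counts in 4 hpf PGCs, at least 5.38-fold higher (adjusted p = 0.0307). Its regulator sox32 had 43.3 and 10.1 CPM at 7 hpf and 1.51 and 4.64 CPM at 4 hpf (adjusted p = 0.0493). The presomitic mesoderm gene msgn1 had 59.4 and 16 CPM in 7 hpf PGCs and 3.97 and 1.16 CPM in 4 hpf PGCs (adjusted p = 0.0419). For tbx6 the levels were 27.7 and 6.81 CPM at 7 hpf against at most 1 count at 4 hpf (at least 12-fold higher, adjusted p = 0.0286). In all of these, replicate 1 of the 7 hpf PGCs was the higher library. Without that library 2 of the 28 genes were called and the median was 1.25. Without replicate 1 of the 4 hpf PGCs 0 were called, without its replicate 2 there was 1, and without replicate 2 of the 7 hpf PGCs there were 10. The T-box gene tbx16 (0.78 ± 0.62 on the log2 scale) and the Notch ligand gene dld (-0.08 ± 0.38) were not called.

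The 11 genes of the dorsal organizer tested had a median log2 fold change of 0.77 in PGCs, or 0.60 with 1 gene at its bound. Beside 5.03% of all genes, 1 of the 11 was called higher. That gene was the secreted Wnt inhibitor frzb, with 42.8 and 9.63 CPM in 7 hpf PGCs and 1.13 and 0.829 CPM in 4 hpf PGCs (log2 fold change 4.73 ± 1.09, adjusted p = 0.0166). The BMP antagonist gene chrd had 465 and 227 CPM in 7 hpf PGCs and 180.0 and 227 CPM in 4 hpf PGCs, and was not called. In soma chrd rose to 609 and 708 CPM at 7 hpf, against 104 and 127 CPM at 4 hpf (adjusted p = 0.00242). The homeobox gene gsc had 20.2 and 6.34 CPM in 7 hpf PGCs and 24.4 and 20.1 CPM in 4 hpf PGCs, and likewise was not called. Without 7 hpf replicate 1 the median of the list was -0.35, and the call of frzb was lost without that library and without either 4 hpf library.

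Keratins and other genes of the EVL and epidermis were among the largest gains in PGCs. Of 19 tested, 13 were called higher and 0 lower in 7 hpf PGCs, beside 5.03% and 2.08% of all genes. The median log2 fold change of the 19 was 3.61. In soma 12 were higher and 1 lower, beside 9.29% and 9.37% of all genes there. The soma median was 2.27 with genes of few counts at their bound. The list summed to 15166 and 7411 CPM in 7 hpf PGCs, against 1403 and 958 CPM in 4 hpf PGCs. In soma it summed to 1849 and 4449 CPM at 7 hpf and to 967 and 1000.3 CPM at 4 hpf. Every 7 hpf PGC library thus lay above every soma library, which was not tested, and replicate 1 was the highest. All 19 genes had more than 3 counts in both 7 hpf PGC libraries. The part of EVL cells in the other PGC results was not tested.

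The keratin gene krt8 rose to 5469 and 2294 CPM in 7 hpf PGCs, against 370.5 and 325 CPM in 4 hpf PGCs (log2 fold change 3.48 ± 0.67, adjusted p = 0.00682). Soma had 399 and 1443 CPM of krt8 at 7 hpf. For krt4, a marker of the EVL, the levels were 3179 and 1653 CPM in 7 hpf PGCs and 192 and 119 CPM in 4 hpf PGCs (log2 fold change 3.96 ± 0.88, adjusted p = 0.0142), beside 232 and 766 CPM in 7 hpf soma. The EVL keratin genes cyt1 and cyt1l started from low levels. For cyt1 they were 338 and 276 CPM in 7 hpf PGCs and 7.18 and 3.65 CPM in 4 hpf PGCs (log2 fold change 5.83 ± 0.95, adjusted p = 0.00297). The keratin gene krt18a.1 rose to 2273 and 1142 CPM, against 167 and 113 CPM in 4 hpf PGCs (adjusted p = 0.00707). Its change exceeded that in soma by 2.2 ± 0.91 on the log2 scale, at an unadjusted p of 0.0286 that did not hold after adjustment (adjusted p = 0.404). The tight junction gene cldne did not overlap between the stages, with 433 and 195 CPM in 7 hpf PGCs and 63.3 and 32.2 CPM in 4 hpf PGCs, but missed the threshold (adjusted p = 0.0836).

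Not all genes of this list behaved alike. The EVL transcription factor genes grhl3 (136 and 53.6 CPM in 7 hpf PGCs, 143 and 80.4 CPM in 4 hpf PGCs) and klf17 (158 and 41.6 CPM and 104 and 60.7 CPM) overlapped between the stages. The epidermal regulator tp63 rose to 5.43 and 13.9 CPM in 7 hpf PGCs, against 0.945 and 0.497 CPM in 4 hpf PGCs (adjusted p = 0.0245), and was at 36.6 and 56.0 CPM in 7 hpf soma. GATA2, a ventral ectoderm factor, rose to 68.5 and 128 CPM, against 26.8 and 15.4 CPM in 4 hpf PGCs (adjusted p = 0.00426), with 349.6 and 257 CPM in 7 hpf soma. For tp63 and GATA2, unlike the keratins, 7 hpf soma was above 7 hpf PGCs in every library. Without 4 hpf replicate 1 the number called was 6, without 4 hpf replicate 2 it was 4, without 7 hpf replicate 1 it was 9 and without 7 hpf replicate 2 it was 10, while the median stayed between 3.31 and 3.92.

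**Figure D3:**
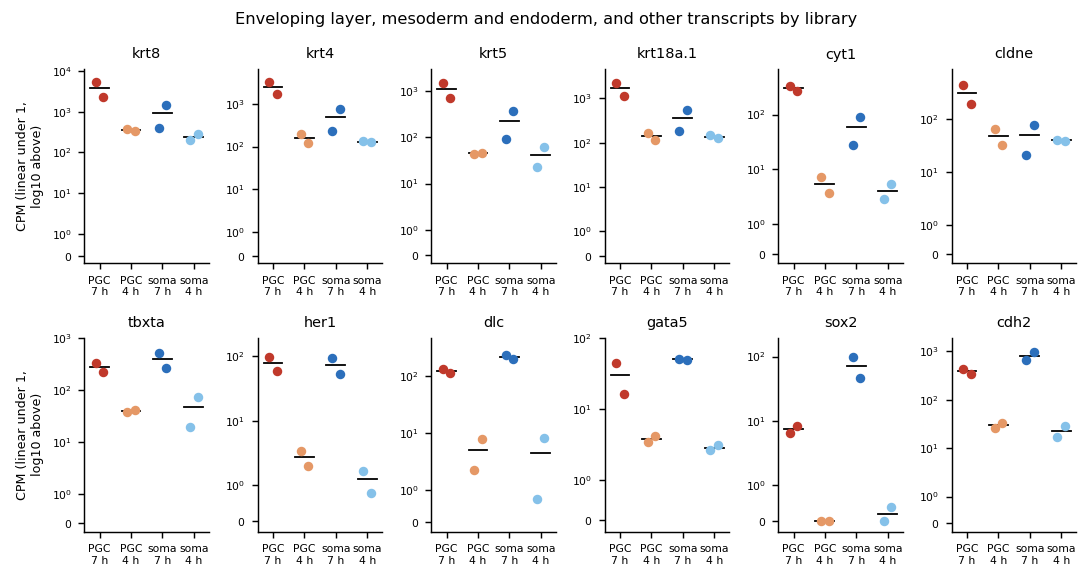
Level in CPM (y axis, linear under 1 and log10 above) of 12 transcripts that did not overlap between the PGC stages and were higher at 7 hpf. The libraries are of 7 hpf PGCs, 4 hpf PGCs, 7 hpf soma and 4 hpf soma. Each point is 1 library and each bar the mean of 2, and cldne was not called. The upper row holds EVL and epidermal genes, where 7 hpf PGCs are above 7 hpf soma, and the lower row germ layer genes, sox2 and cdh2, where 7 hpf PGCs are near or below 7 hpf soma.

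Of 16 neural plate genes tested, 1 was called higher in PGCs (sox2, above), near the 5.03% of all genes, and 0 lower. Soma gave 9 higher and 0 lower, beside 9.29% and 9.37% of all genes there. The median log2 fold change was 1.33 in PGCs, or 1.23 with 4 genes at their bound, and 3.02 on the same terms in soma. The forebrain and midbrain gene OTX2 had 1.23 and 12.9 CPM in 7 hpf PGCs and 0 and 1.33 CPM in 4 hpf PGCs, with 45.9 and 89.7 CPM in 7 hpf soma. The SoxB1 gene sox3 had 50.3 and 30.3 CPM in 7 hpf PGCs and 88.8 and 81.2 CPM in 4 hpf PGCs (log2 fold change -1.07 ± 0.62, not called). For gbx1, a hindbrain homeobox gene, PGCs had 7.01 and 15 CPM at 7 hpf and 7.75 and 1.66 CPM at 4 hpf, whereas soma rose to 40.3 and 53.4 CPM at 7 hpf, against 0.719 and 0.969 CPM at 4 hpf. The changes of gbx1 differed at an unadjusted p of 0.000505 and an adjusted p of 0.149.

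PGCs start directed migration between these stages, which brings in the chemokine system and adhesion. Of 27 guidance and motility genes tested, 7 were called higher and 0 lower, beside 5.03% and 2.08% of all genes. The median log2 fold change of the 27 was 0.65, or 0.31 with 7 genes at their bound. The ligand gene cxcl12b rose to 26.8 and 8.93 CPM in 7 hpf PGCs, against 0.945 and 1.82 CPM in 4 hpf PGCs (adjusted p = 0.0357). The receptor has 2 genes under the same symbol. One, CXCR4 (ENSDARG00000057633), had 21.7 and 16.7 CPM in 7 hpf PGCs and 60.5 and 61.0 CPM in 4 hpf PGCs, a gap that just missed the threshold (log2 fold change -1.66 ± 0.50, adjusted p = 0.0556). The other, CXCR4 (ENSDARG00000041959), had 44.5 and 71.6 CPM in 7 hpf PGCs and 59.4 and 94.5 CPM in 4 hpf PGCs, which overlapped. The scavenger receptor gene ACKR3 (ENSDARG00000058179), which removes Cxcl12, had 17.7 and 7.75 CPM in 7 hpf PGCs and 51.2 and 53.6 CPM in 7 hpf soma, and was not called in PGCs.

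The other 6 genes of the list called higher included a cadherin, an integrin and a pair of small GTPases. N-cadherin, cdh2, rose to 433 and 339 CPM in 7 hpf PGCs, against 26.1 and 33.0 CPM in 4 hpf PGCs, a 13.1-fold rise (log2 fold change 3.71 ± 0.37, adjusted p = 0.00021). E-cadherin, cdh1, had 399.6 and 149 CPM at 7 hpf and 281 and 275 CPM at 4 hpf, with a log2 fold change of -0.02 ± 0.63. The small GTPase genes rhoaa and rhoab both rose. For rhoaa, levels were 95.0 and 83.4 CPM in 7 hpf PGCs and 16.6 and 17.1 CPM in 4 hpf PGCs (log2 fold change 2.4 ± 0.29, adjusted p = 0.000473). For rhoab they were 140.0 and 121 CPM at 7 hpf and 21.9 and 42.9 CPM at 4 hpf (adjusted p = 0.00348), while the GTPase genes rac1a (0.09 ± 0.29 on the log2 scale) and cdc42 (-0.13 ± 0.30) were not called. The repressor gene ZEB1, which is known to lower E-cadherin, had 15.1 and 10.8 CPM in 7 hpf PGCs and no count in 4 hpf PGCs (at least 19.1-fold higher, adjusted p = 0.000659). The water channel gene AQP3 (ENSDARG00000003808) had 6.48 and 4.46 CPM in 7 hpf PGCs and 0.567 and 0 CPM in 4 hpf PGCs (adjusted p = 0.0427). The integrin gene ITGB1 (ENSDARG00000071863) rose to 23.5 and 41.6 CPM, against 7.94 and 9.45 CPM in 4 hpf PGCs (adjusted p = 0.0142). Between 3 and 5 of the 27 genes were called higher with any 1 library left out, and the median was -0.04 without 7 hpf replicate 1. Against 0 lower, 2 were called lower by DESeq2, by the likelihood ratio test, with no filter on low counts, without normalization factors, with the 4 PGC libraries alone and with the 8 libraries of both stages.

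**Figure D4:**
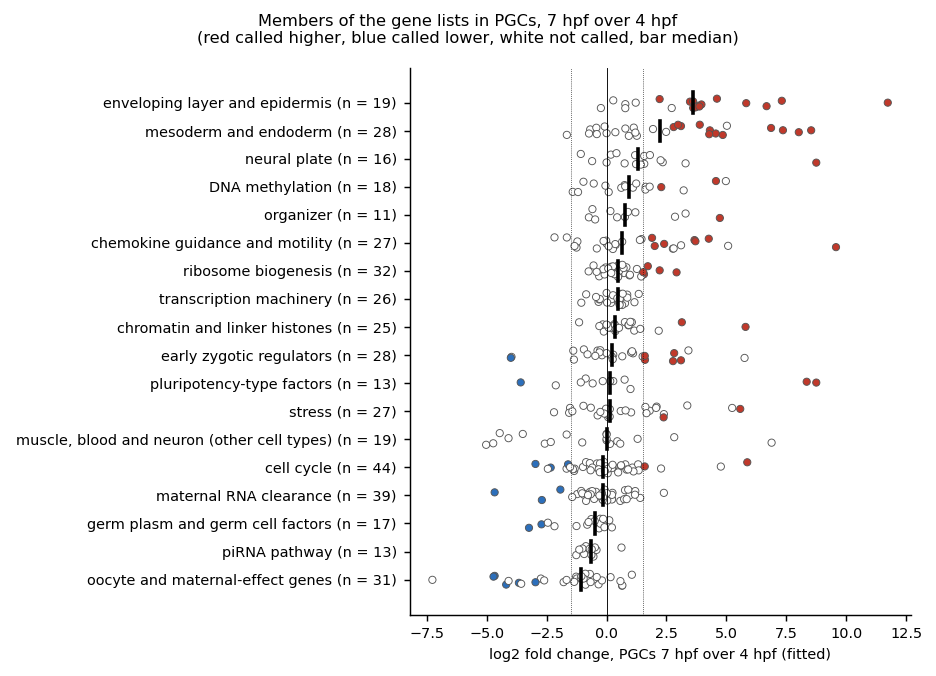
Fitted log2 fold change (x axis, 7 hpf PGCs over 4 hpf PGCs) of each member tested of each gene list (rows, with the number tested); red points were called higher, blue points called lower and white points neither. Thick bars are medians and dotted lines mark 1.5 in each direction. The EVL and epidermis list has its median at 3.61 and the oocyte list at -1.07.

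Of 44 cell cycle genes, 2 were called higher and 3 lower in 7 hpf PGCs, beside 5.03% and 2.08% of all genes, and the median log2 fold change was -0.14. With 1 library left out, between 0 and 1 were called higher and between 1 and 3 lower. The replication licensing inhibitor gene gmnn (geminin) fell to 121 and 61.1 CPM in 7 hpf PGCs, against 509 and 410.3 CPM in 4 hpf PGCs (log2 fold change -2.33 ± 0.40, adjusted p = 0.00409). The licensing factor gene cdc6 fell to 173 and 78.9 CPM, against 379.6 and 389.6 CPM in 4 hpf PGCs (adjusted p = 0.0491). The third gene called lower was ccna1, above. The helicase subunit genes of the MCM complex, which start replication, were mixed. MCM6 (ENSDARG00000057683) rose to 344 and 269 CPM in 7 hpf PGCs, against 76.4 and 127 CPM in 4 hpf PGCs (adjusted p = 0.021), and a second gene of that symbol, MCM6 (ENSDARG00000033231), had 116 and 123 CPM at 7 hpf and 176 and 203 CPM at 4 hpf. The other gene called higher, CCND2 (ENSDARG00000070408), a D cyclin, had 1.23 and 0.705 CPM in 7 hpf PGCs and no count at 4 hpf. Its level in replicate 2 was 3 counts, the smallest signal taken here. The proliferation marker mki67 (0.48 ± 0.38 on the log2 scale) and the mitotic kinase gene plk1 (-0.03 ± 0.44) were not called.

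Ribosome biogenesis gave 5 genes higher and 0 lower of 32 tested in 7 hpf PGCs, beside 5.03% and 2.08% of all genes. The median log2 fold change of the 32 was 0.50. In soma 11 were called higher and 0 lower, beside 9.29% and 9.37% of all genes there, with a median of 1.30. The rRNA methyltransferase gene nop2 rose to 217 and 195 CPM in 7 hpf PGCs, against 22.3 and 32.0 CPM in 4 hpf PGCs, a 7.57-fold rise with stages far apart (log2 fold change 2.92 ± 0.40, adjusted p = 0.00101). The processing factor gene utp15 had 47.5 and 46.3 CPM in 7 hpf PGCs and 14 and 14.4 CPM in 4 hpf PGCs (adjusted p = 0.00675). The abundant nucleolar genes ncl (0.73 ± 0.40 on the log2 scale) and fbl (0.49 ± 0.33) were not called. Without normalization factors 1 of the 32 was called, and with any 1 library left out between 1 and 3 were. The transcription machinery gave 0 calls in either direction of 26 tested, with a median of 0.49, and included the polymerase II subunit gene polr2a at 717 and 924 CPM in 7 hpf PGCs and 644 and 798 CPM in 4 hpf PGCs.

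Of 18 genes of DNA methylation, which the study followed in the same cells, 2 were called higher and 0 lower. Over all genes the shares were 5.03% and 2.08%. The median log2 fold change of the 18 was 0.94, or 0.76 with 2 genes at their bound. The 5-methylcytosine oxidase gene tet1 had 7.01 and 10.3 CPM in 7 hpf PGCs and 0 and 0.663 CPM in 4 hpf PGCs (log2 fold change 4.56 ± 0.86, adjusted p = 0.0064). The DNA glycosylase gene TDG (ENSDARG00000013004) rose to 75.5 and 59.7 CPM, against 12.9 and 14.9 CPM in 4 hpf PGCs (adjusted p = 0.0156). The maintenance methyltransferase gene dnmt1 had 149 and 250.1 CPM in 7 hpf PGCs and 514 and 548 CPM in 4 hpf PGCs. These did not overlap but missed the threshold (log2 fold change -1.41 ± 0.43, adjusted p = 0.055). Its partner uhrf1 had 411 and 276 CPM at 7 hpf and 833 and 735 CPM at 4 hpf (adjusted p = 0.117). The de novo methyltransferase gene dnmt3bb.2 had 457 and 428 CPM in 7 hpf PGCs and 179 and 197 CPM in 4 hpf PGCs, which passed in adjusted p (0.0313) but not in fold (log2 fold change 1.24 ± 0.33). The call of tet1 was lost without 4 hpf replicate 1, and that of TDG with each library left out but 7 hpf replicate 2.

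The 25 chromatin and linker histone genes had a median log2 fold change of 0.37. Beside 5.03% and 2.08% of all genes, 2 of the 25 were called higher and 0 lower. One of them, PRDM1, which encodes Blimp1, a regulator of germ cell fate in the mouse, had 27.2 and 24.7 CPM in 7 hpf PGCs and 0.945 and 0 CPM in 4 hpf PGCs (log2 fold change 5.80 ± 1.27, adjusted p = 0.0142). Its call was lost with each library left out but 7 hpf replicate 2, and between 0 and 1 of the 25 were then called. Soma had 45.1 and 206 CPM of PRDM1 at 7 hpf and no count at 4 hpf. The 27 stress response genes had a median of 0.14, or 0.04 with 4 genes at their bound. Beside 5.03% and 2.08% of all genes, 2 of the 27 were called higher and 0 lower. These were an HSP90AA1 gene, a chaperone, with 321 and 693 CPM in 7 hpf PGCs and 40.5 and 154 CPM in 4 hpf PGCs, and HMOX1, heme oxygenase, with 4.73 and 5.40 CPM in 7 hpf PGCs and at most 1 count at 4 hpf. Between 0 and 1 of the 27 were called with 1 library left out.

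Genes outside the lists were named by fold and by difference in level. The 12 gains chosen by fitted fold had no count in either 4 hpf PGC library, so only a lower bound can be given. The protocadherin gene pcdh19 had 30.3 and 61.8 CPM in 7 hpf PGCs, at least 53.5-fold higher than in 4 hpf PGCs, and 174 and 441 CPM in 7 hpf soma. The gluconeogenic enzyme gene pck2 had 24.2 and 70.7 CPM (at least 42.6-fold) and the actin regulator gene shroom3 had 26.6 and 22.8 CPM (at least 40.2-fold). The ligand gene wnt3a had 37.3 and 16.2 CPM in 7 hpf PGCs, at least 28.6-fold higher, with 10.1 and 13.8 CPM in 7 hpf soma. The hypoxia-inducible factor gene EPAS1 (ENSDARG00000008697) had 15.4 and 23.7 CPM, at least 27.2-fold higher. The calcium-dependent membrane-binding protein gene anxa1c, also on the EVL list, had 98.1 and 17.6 CPM in 7 hpf PGCs (at least 31.1-fold) and 3.06 and 7.44 CPM in 7 hpf soma. The ethanolamine kinase gene etnk1 had 26.3 and 15.3 CPM in 7 hpf PGCs, with 12.1 and 7.00 CPM in 7 hpf soma and 3.12 and 0.194 CPM in 4 hpf soma. The others were hkdc1 (a hexokinase relative), PKDCC (a kinase), ftr14l, tgm5l and agr1, at between 8.22 and 44.9 CPM in the 7 hpf PGC libraries. Soma at 7 hpf was below both PGC libraries for ftr14l (1.61 and 5.91 CPM), tgm5l (0.805 and 7.44 CPM) and agr1 (1.45 and 8.97 CPM). For hkdc1 it had 11.3 and 42.9 CPM and for PKDCC 106 and 188 CPM. All 12 had adjusted p-values between 0.000358 and 0.0491.

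By difference in level, the largest gain was of zgc:158463, which RefSeq (assembly GRCz12tu) annotates as rRNA. It rose to 8606 and 8102 CPM in 7 hpf PGCs, against 297 and 531 CPM in 4 hpf PGCs (log2 fold change 4.33 ± 0.70, adjusted p = 0.00284). Soma rose with it, to 14268 and 18794 CPM at 7 hpf, against 478 and 958 CPM at 4 hpf. In 24 hpf PGCs zgc:158463 had 253158 and 266103 CPM. How much rRNA each of these total RNA libraries kept was not tested. The gene si:dkey-153m14.1 followed the same pattern, with 3829 and 3917 CPM in 7 hpf PGCs and 139 and 208 CPM in 4 hpf PGCs. The small nuclear RNA gene rn7sk (7SK), which restrains the elongation factor P-TEFb, rose to 1721 and 2039 CPM, against 102 and 346 CPM in 4 hpf PGCs (adjusted p = 0.00303). The other 5 were the keratin genes krt8, krt4 and krt18a.1, above, and the plakin genes eppk1 and ppl, which tie keratin filaments to junctions. For eppk1 the levels were 2128 and 1082 CPM in 7 hpf PGCs and 78.1 and 79.2 CPM in 4 hpf PGCs (adjusted p = 0.00727). For ppl they were 2095 and 1011 CPM at 7 hpf and 173 and 96.0 CPM at 4 hpf (adjusted p = 0.0156). Like the keratins, both were lower in 7 hpf soma, with 122 and 459 CPM of eppk1 and 155 and 540 CPM of ppl. The part of EVL cells in these levels was not tested.

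Among the losses chosen by fitted fold was the zinc finger gene znf1126, with no count in 7 hpf PGCs and 17.0 and 12.6 CPM in 4 hpf PGCs, at least 17.9-fold lower (adjusted p = 0.0064). Other zinc finger genes of the same naming series fell with it. For znf1058 the levels were 0.526 and 0.705 CPM in 7 hpf PGCs and 49.9 and 31.2 CPM in 4 hpf PGCs (at least 44.2-fold lower), and for znf1125 they were 0.350 and 0 CPM and 21.7 and 29.7 CPM at 7 and 4 hpf (at least 30.9-fold lower). The SUMO protease gene senp6b fell to 0.350 and 0.235 CPM in 7 hpf PGCs, against 17.4 and 15.7 CPM in 4 hpf PGCs (adjusted p = 0.00602). The glutathione transferase gene gsto2 had 0 and 0.470 CPM in 7 hpf PGCs and 8.70 and 21.6 CPM in 4 hpf PGCs, at least 12.34-fold lower, whereas soma kept 7.73 and 7.22 CPM at 7 hpf, with 15.8 and 16.5 CPM at 4 hpf. The changes of gsto2 differed at an unadjusted p of 0.002 and an adjusted p of 0.214. The genes si:dkey-188c14.4 and si:ch211-139k8.4 had identical counts in every PGC library, so their reads could not be assigned to one of them: each had 6.66 and 3.29 CPM in 7 hpf PGCs and 324 and 220.2 CPM in 4 hpf PGCs (log2 fold change -5.75 ± 0.64, adjusted p = 0.000314). The other losses by fold were klhl35, zgc:165514, zgc:152863, FILIP1 (ENSDARG00000078419) and hsd3b7, which had at most 0.350 CPM in the 7 hpf PGC libraries and between 9.12 and 19.8 CPM in the 4 hpf PGC libraries.

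By difference in level, the transcript lost most was si:ch211-241j12.3, with 5128 and 4415 CPM in 7 hpf PGCs and 14593 and 27413 CPM in 4 hpf PGCs (log2 fold change -2.14 ± 0.47, adjusted p = 0.0129). It remained far above soma, which had 60.9 and 60.4 CPM at 7 hpf and 406 and 474 CPM at 4 hpf. The others included nanog and the HOOK2 gene, above, and the zinc finger genes drll.3 and blf. The level of blf was 44.3 and 59.4 CPM in 7 hpf PGCs, against 410.4 and 376 CPM in 4 hpf PGCs (log2 fold change -2.92 ± 0.38, adjusted p = 0.000729). For drll.3 it was 96.6 and 50.7 CPM at 7 hpf and 582 and 422 CPM at 4 hpf (adjusted p = 0.0236). The Myc family gene mycla fell to 212 and 130.1 CPM, against 491 and 592 CPM in 4 hpf PGCs (adjusted p = 0.0307). The endoplasmic reticulum chaperone gene hyou1 fell to 108 and 93.9 CPM, against 393 and 483 CPM in 4 hpf PGCs (adjusted p = 0.00297), and gmnn, above, was also among the 8.

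Whether the same genes changed in soma was asked with the same fit. Soma gave 1907 genes higher (9.29%) and 1925 lower (9.37%) at 7 hpf than at 4 hpf. The genes called higher in both numbered 723, which was 70.0% of the 1033 in PGCs and 37.9% of the 1907 in soma. The genes called lower in both numbered 328, which was 76.6% of the 428 in PGCs and 17.0% of the 1925 in soma. No gene was called in opposite directions. Of the 1925 genes lost in soma, 1808 lay below 0 in PGCs, with a median log2 fold change of -1.12 in PGCs and -2.54 in soma, both with genes of at most 3 counts at their bound. Of the 1907 genes gained in soma, 1830 lay above 0 in PGCs, with medians of 1.45 in PGCs and 2.23 in soma on the same terms. These genes were chosen by their change in soma, so the gap between the medians is a description only.

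The difference itself was tested as an interaction, and 0 of 20536 genes (0%) were called by edgeR's quasi-likelihood test, with a lowest adjusted p of 0.0722 and 2232 genes at an unadjusted p under 0.05. DESeq2 called 317 genes and the likelihood ratio test 395. The quasi-likelihood test itself called 502 with no filter on low counts, 44 with a stricter filter and 54 with the 8 libraries of 4 and 7 hpf. The count thus depended on the tool, the filter and the libraries fitted. Among the 1033 genes called higher and 428 called lower in PGCs, 261 had an unadjusted interaction p under 0.05. The PGC change that chose these genes is part of the interaction, so this count is a description only. It held 179 genes called higher, of which 67 rose more in soma. It also held 82 genes called lower, of which 53 fell more in soma. The genes tdrd7a, ca15b, nanos3 and gtf2a1, given below, were not called in PGCs, and each had the lower change in soma. Other list members had the higher change in soma, among them celf1 and klf2a. For celf1 the log2 fold changes were -0.14 ± 0.29 in PGCs and 1.08 ± 0.29 in soma, at an unadjusted p of 0.00989 (adjusted p = 0.307). For klf2a they were -2.12 ± 0.69 and 1.18 ± 0.66, at an unadjusted p of 0.00368 (adjusted p = 0.232). For tdrd7a the change in PGCs (-0.14 ± 0.61) was above that in soma (-3.71 ± 0.71) at an unadjusted p of 0.00155, and for ca15b (-1.25 ± 0.62 against -6.53 ± 1.03) at 0.000851. The adjusted p-values were 0.201 for tdrd7a and 0.171 for ca15b. For nanos3, to which reads from the reporter may add, the unadjusted p was 0.0127 (adjusted p = 0.328). Its log2 fold changes were 0.11 ± 0.44 in PGCs and -1.93 ± 0.57 in soma. The general transcription factor gene gtf2a1 gave -0.85 ± 0.30 in PGCs and -2.87 ± 0.32 in soma, at an unadjusted p of 0.000336 (adjusted p = 0.127).

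**Figure D5:**
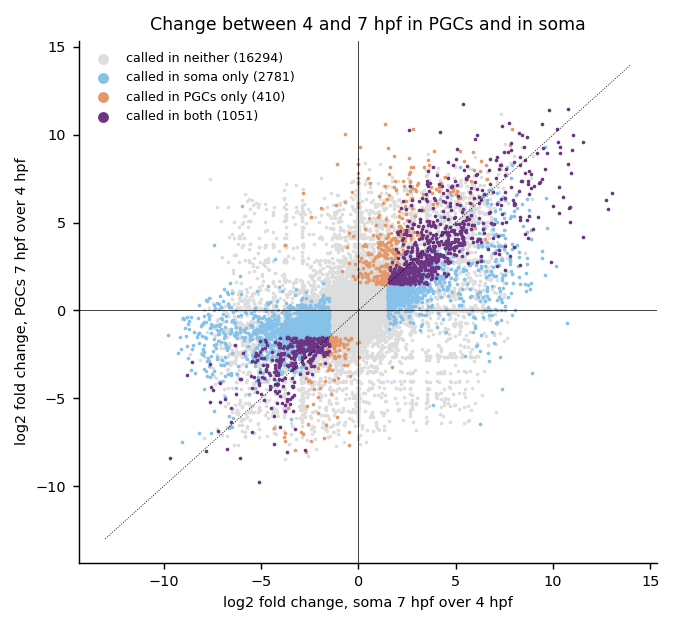
Fitted log2 fold change of each of 20536 genes between 7 and 4 hpf in PGCs (y axis) and in soma (x axis); purple points were called in both, orange in PGCs alone, light blue in soma alone and grey in neither, and the dotted line marks equal change. The genes called in both (723 higher and 328 lower) lie in the upper right and lower left corners. Of all genes called in soma, 1830 of 1907 called higher lay above 0 in PGCs and 1808 of 1925 called lower lay below 0.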

How the data were processed

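Sorted zebrafish PGCs and somatic cells of 4 stages (4, 7, 24 and 36 hpf) were sequenced by the authors from a stranded total RNA kit for low input, 2 libraries per group. Reads were trimmed with TrimGalore and mapped to danRer10 by STAR. RSEM then estimated the deposited expected counts, which are not normalised, and the deposited TPM and effective length tables, 1 row per Ensembl gene. RSEM shares reads out among near-identical genes, so the counts of such copies are uncertain. TPM and effective lengths served in alternatives alone. Reads carry no molecular identifiers here. One soma library of 24 hpf has a source name that reads PGCs, against its title and cell type, which were followed (soma).

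The 92 spike-in rows were removed and each expected count was rounded. The genes kept by filterByExpr (minimum count 10, minimum total 15) numbered 20536. After TMM scaling, the 16 libraries were fitted together, each stage and cell type being a level of a single factor, with the quasi-likelihood functions of edgeR 4.0.16 in R 4.3.3. Benjamini-Hochberg adjustment covered every gene fitted. Calls needed an adjusted p under 0.05 and a log2 fold change past 1.5, and SE was taken as |log2 fold change| over the square root of F. For a gene with no more than 3 counts in either library of a stage, the fold printed is a bound: the lower library of the other stage against 3 counts in the stage's library of lesser depth. The code was tested on simulated data.

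Of 34289 identifiers, 26790 had a symbol in the tables used, and an identifier follows a symbol that several genes share. The members and lists were chosen with earlier results of these data known. Named genes were the members of 19 lists and, in each direction, the 12 largest in fold and the 8 largest in CPM difference among called genes that had a symbol, did not overlap between stages and averaged 5 CPM or more in the 4 PGC libraries. Alternatives were DESeq2 1.42.0, limma 3.58.1 (log2 of TPM plus 1, or plus 0.1), other filters, scalings and subsets of libraries, a likelihood ratio test, a replicate block, and leaving out each PGC library. Sequences and coordinates are not given here, and some list members are not reported here.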

Additional observations from a re-analysis of the deposited data

How the results depend on the processing

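The number of genes called in PGCs varied with the test, the filter and single libraries. Against 1033 higher, the likelihood ratio test gave 1792, limma on log2(TPM + 0.1) 685, limma on log2(TPM + 1) 505 and limma on log2(TPM + 1) with no filter 356. Against 428 lower, the 4 PGC libraries alone gave 653, DESeq2 874, the likelihood ratio test 979, no filter on low counts 791 and limma with no filter 237. With 1 PGC library left out, the lone library of its stage being assumed to vary like the other groups, between 264 and 684 genes were called higher and between 98 and 199 lower. Of the 40 genes named by fold or difference, none changed direction under any alternative run, at least 34 were still called under each alternative with all PGC libraries, and between 25 and 33 with 1 left out. Of the list members 65 were called, against 35 by limma with no filter and between 16 and 42 with 1 library left out. For the difference from soma, against 0 genes, the 8 libraries of 4 and 7 hpf gave 54, DESeq2 317, the likelihood ratio test 395, no filter on low counts 502 and a stricter filter 44. The causes of these differences were not tested. Depth limits genes near 3 counts, which is between 0.497 and 0.705 CPM.

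Same-numbered PGC libraries of 4 and 7 hpf deviated from their group means with r = 0.131, but share only a number in the labels. A replicate block gave 1049 genes higher and 456 lower in PGCs, and 0 genes for the difference from soma.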

Other observations

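Gene families outside the lists were looked at after their values were seen, so they are descriptions without a test. Over all genes, 5.03% were called higher and 2.08% lower in PGCs. All 82 ribosomal protein genes tested lay above 0 in PGCs and 24 were called higher, with a median log2 fold change of 1.26. Their summed level was 8848 and 7368 CPM in 7 hpf PGCs, against 3253 and 3885 CPM in 4 hpf PGCs. In soma 73 of the 82 were called higher, beside 9.29% of all genes there. The summed level in soma was 18019 and 18472 CPM at 7 hpf, against 4174 and 4947 CPM at 4 hpf. Laminins, which build basement membranes, summed to 1547 and 1741 CPM in 7 hpf PGCs, against 297 and 304 CPM in 4 hpf PGCs, and 4 of 13 (lama1, lama4, lama5 and a LAMB1 gene) were called higher. Of 29 Eph receptor and ephrin genes, which act in cell sorting, 11 were called higher and 1 lower. Of 260 genes named znf, 9 were called higher and 9 lower, beside 5.03% and 2.08% of all genes. Among the 9 called lower, 8 belong to the naming series that includes znf1126 and znf1058.

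The level of buc in PGCs was 217 and 193 CPM at 4 hpf, 23.5 and 20.0 CPM at 7 hpf, 0.491 and 2.27 CPM at 24 hpf and 0.304 and 6.30 CPM at 36 hpf. For nanog it was 1388 and 1239 CPM, 147 and 71.9 CPM, 0.983 and 2.97 CPM and 3.70 and 7.87 CPM at 4, 7, 24 and 36 hpf. For tbxta the values in the same order were 37.4 and 42.6, 330.3 and 226, 39.2 and 38.9 and 2.67 and 6.82 CPM. For cdh2 they were 26.1 and 33.0, 433 and 339, 755 and 559 and 658 and 589 CPM. The transcript si:ch211-241j12.3 had 14593 and 27413, 5128 and 4415, 53.8 and 46.7 and 44.2 and 131 CPM.

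The EVL list summed in PGCs to 1403 and 958 CPM at 4 hpf, 15166 and 7411 CPM at 7 hpf, 6576 and 15503 CPM at 24 hpf, and 3621 and 1461 CPM at 36 hpf. Markers of muscle, blood and neurons, which summed to 8.06 and 10.6 CPM in 7 hpf PGCs, reached 21459 and 38009.7 CPM in 24 hpf PGCs. In 36 hpf PGCs they summed to 1672 and 1314 CPM. Whether other cells in the sorted fraction gave these levels was not tested.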
